A study of Mus musculus with 15 samples.

Results

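10 genes of the G1 phase machinery were followed in bone marrow HSCs (hematopoietic stem cells) of the mouse: the kinases Cdk6, Cdk4 and Cdk2, the cyclins Ccnd1, Ccnd2, Ccnd3 and Ccne1, and the pocket proteins Rb1, Rbl1 and Rbl2. They were chosen by symbol, and all 10 were found among the 31298 symbols of the deposited table. The set was also chosen because Cdk6 rose from each label bin to the next, so Cdk6 is described without a test and counts of calls are over the other 9 genes. All mice carried hCD34-tTA and TetO-H2BGFP, a histone H2B fused to green fluorescent protein under a doxycycline-controlled promoter, and all received doxycycline in the drinking water (1 mg/ml). The human CD34 sequence drives the transactivator, so only cells that used it were labelled. While doxycycline is given the label is no longer made, and each division dilutes it. HSCs were sorted as LSK, CD48-, Flk2- and CD150+ cells and subdivided by label retention into GFP4, GFP3, GFP2 and GFP1. Total was the undivided HSC population. Each of the 5 groups had 3 libraries, at ages 5, 5.5 and 6.5 months with 12, 14 and 16 weeks of doxycycline. Every group had 1 library of each age. The labels do not say which bin number held the most label, whether animals were pooled, or whether same-age libraries came from the same animals. The p-values therefore measure the spread between these samples, and age is not separable from doxycycline weeks.

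In the textbook account, D-type cyclins bind CDK4 or CDK6 in early G1 and cyclin E binds CDK2 later. These kinases phosphorylate the pocket proteins RB1, RBL1 (p107) and RBL2 (p130), which then release E2F factors and allow S phase genes to be transcribed. RBL2 together with repressive E2F factors and the MuvB core forms the DREAM complex of quiescent cells, whereas RBL1 is itself an E2F target. HSCs are mostly quiescent in the adult marrow, and CDK6 level is known to affect how fast HSCs leave quiescence.

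Motifs known from this pathway were searched in the promoters of the members, because the p107 and p130 genes moved in opposite directions. The promoters come from RefSeq (GRCm38.p6), where 7 of the 10 members were matched. The letters searched were the E2F heptamer TTCCCGC with its variants spelled TTCGCGC, alternatively TTGCCGC, alternatively TTGGCGC, as well as the cell cycle homology region TTTGAA, on both strands of the 250 bases before the annotated start. No match of one motif overlapped a match of the other in these windows. Cdk2 held E2F letters at 2 places, Rbl1 held them once near its start, and Rbl2 held TTTGAA once on the minus strand and no E2F letters. The windows of Cdk6, Cdk4, Ccnd3 and Ccne1 held neither. Over all 32851 promoter windows of this length, 7.89% held an E2F heptamer and 16.0% held TTTGAA. The windows of those 3 genes are printed below 5′ to 3′ on the gene's own strand, with the matched letters in capitals; a match on the other strand appears as its reverse complement, GCGGGAA in the Cdk2 window and TTCAAA in that of Rbl2. They lie at chr10:128705052-128705301 on the minus strand for Cdk2, at chr2:157204535-157204784 on the minus strand for Rbl1 and at chr8:91069807-91070056 on the plus strand for Rbl2. All 3 windows lie just upstream of the gene, outside its GENCODE annotation. A match describes letters in a window and no binding was measured.
Cdk2: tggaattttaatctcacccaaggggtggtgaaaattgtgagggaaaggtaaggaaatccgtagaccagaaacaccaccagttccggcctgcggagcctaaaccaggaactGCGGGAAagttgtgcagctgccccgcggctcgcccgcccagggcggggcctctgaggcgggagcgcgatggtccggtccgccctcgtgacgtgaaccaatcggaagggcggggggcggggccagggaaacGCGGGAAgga
Rbl1: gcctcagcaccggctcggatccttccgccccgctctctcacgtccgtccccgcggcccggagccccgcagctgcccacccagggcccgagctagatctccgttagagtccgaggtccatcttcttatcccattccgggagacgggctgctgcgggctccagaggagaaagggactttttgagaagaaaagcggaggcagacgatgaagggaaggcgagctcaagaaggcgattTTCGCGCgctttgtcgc
Rbl2: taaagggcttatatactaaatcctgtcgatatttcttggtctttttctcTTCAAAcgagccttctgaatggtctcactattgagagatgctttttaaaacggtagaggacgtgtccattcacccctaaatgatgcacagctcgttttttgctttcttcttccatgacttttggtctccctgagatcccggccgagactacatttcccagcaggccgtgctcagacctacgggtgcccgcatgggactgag

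The values are log2 levels on a scale that the authors made equal in distribution between libraries. Levels are compared between groups for 1 gene at a time, since they are not known to be scaled per transcript length. Read depth is unknown. In bulk RNA, fewer cells of a type and less RNA per cell cannot be told apart. The 10 HSC markers checked (Procr, Hlf, Mecom and others) were above the lowest value in every library, and 7 of 10 were lower in GFP1 than in GFP4. Immunoglobulin genes, which HSCs are not known to express, made up 4.34 to 5.49% of the summed level in the 6 GFP1 and Total libraries and 0.00726 to 0.0737% in the 9 others. The 10 plasma cell markers moved with them: all 10 were higher in GFP1 than in GFP4, and their summed log2 level ran from 17.14 to 17.47 in GFP1 and from 16.37 to 17.68 in Total, but from 13.09 to 13.70 in GFP4 and from 12.91 to 13.03 in GFP2. Of 8 B cell markers 6 were higher in GFP1 than in GFP4 and none in GFP2 than in GFP4. Beside these and the following counts, 19.5% of all tested genes differed in either direction between GFP1 and GFP4. Between GFP2 and GFP4 it was 4.35%. The sort removed lineage-marked cells and kept LSK, CD48-, Flk2- and CD150+ cells, a gate that should leave out plasma and B cells. Some megakaryocyte and erythroid genes moved too, also where immunoglobulin was low. Of 8 megakaryocyte markers, 6 were higher and 1 lower in GFP1 than in GFP4 (median 2.04). In GFP2 against GFP4, 3 were higher and 1 lower (median 1.06). Itga2b, the platelet integrin, averaged 11.11, 12.06, 12.92 and 14.32 from GFP4 to GFP1. Of 8 erythroid markers, 3 were higher in GFP1 and 2 in GFP2 than in GFP4, and Gata1, an erythroid and megakaryocyte transcription factor, averaged 6.71, 8.01, 9.36 and 11.74 over the same bins. Among all markers checked, Gzma, Ncr1, Marco and Tnfrsf17 were at the lowest value in some libraries. GFP2 against GFP4 compares libraries low in immunoglobulin but not free of other markers. Of 8 macrophage markers 0 were called in it (median 1.36). Their summed log2 level ran from 11.29 to 13.40 in GFP4 and from 12.55 to 14.96 in GFP2. Of 8 granulocyte-monocyte markers 0 were called (median −0.61), with summed levels of 16.08 to 17.39 in GFP4 and 15.60 to 16.81 in GFP2. The part of any of these cells, or of these genes, in the differences between groups was not tested.

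The kinases Cdk4 and Cdk2, cyclin E1 and the pocket protein Rbl1 were higher, and cyclin D2 and the pocket protein Rbl2 lower, in GFP1 than in GFP4. By limma, 4 of the 9 tested members were higher in GFP1 (Cdk4, Cdk2, Ccne1 and Rbl1) and 2 were lower (Ccnd2 and Rbl2). Over all 27994 genes tested, 19.5% were called in this comparison (9.27% higher and 10.3% lower), and 41.3% were called of the 10337 genes that average 10 ppm or more of a library's summed linear values, the range in which the members lie. In 7 of the 9 members the GFP1 and GFP4 libraries did not overlap, against 32.8% of all genes. The median difference of the 9 members was 0.12 on the log2 scale, and that of all genes was −0.069. No tested member other than these 6 passed the test.

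**Figure D1:**
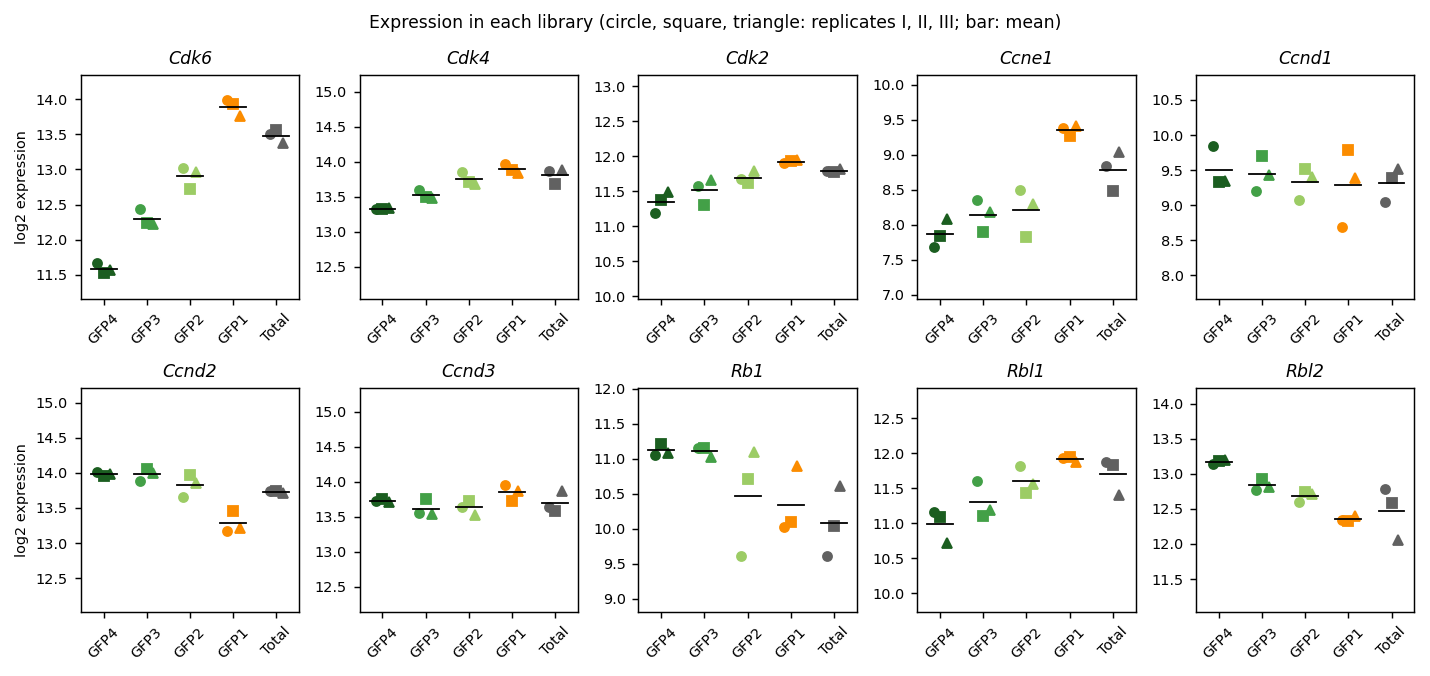
Log2 level of each gene (vertical axis, each panel spanning 3.2 log2 units around its own centre) in every library, by group along the horizontal axis; circles, squares and triangles are the 5, 5.5 and 6.5 month libraries and bars are group means. Cdk6 climbs from GFP4 to GFP1, Rbl2 descends, and the Rb1 libraries spread apart in GFP2, GFP1 and Total.

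Cdk6 (chromosome 5, 3341485 to 3531008, plus strand) encodes a kinase partner of the D-type cyclins. Its log2 levels at 5, 5.5 and 6.5 months were 11.67, 11.52 and 11.56 in GFP4, then 12.43, 12.23 and 12.23 in GFP3, then 13.02, 12.72 and 12.97 in GFP2, then 13.99, 13.93 and 13.77 in GFP1. The Total libraries, at 13.51, 13.56 and 13.37, lay between GFP2 and GFP1. No library of one bin overlapped a library of the next. The mean steps were 0.71 from GFP4 to GFP3, 0.61 from GFP3 to GFP2 and 0.99 from GFP2 to GFP1. From GFP4 to GFP1 the difference was 2.31 (SE 0.096), a 4.97-fold difference on the deposited log2 scale, whose offset is not stated, and the same-age differences were 2.32, 2.41 and 2.21. These values describe the gene the set was chosen on.

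Cdk4 (chromosome 10, 127063534 to 127067920, plus strand) encodes the other partner of the D-type cyclins. Its levels were 13.32, 13.32 and 13.34 in GFP4, 13.59, 13.50 and 13.48 in GFP3, 13.86, 13.71 and 13.69 in GFP2, 13.97, 13.88 and 13.84 in GFP1 and 13.87, 13.68 and 13.88 in Total. The GFP4 libraries lay below all others. Cdk4 was 0.57 higher in GFP1 than in GFP4 (SE 0.077, limma adjusted p = 1.65e-05), a 1.48-fold change, and 0.42 higher in GFP2 than in GFP4 (adjusted p = 0.00253). Its range was narrower than that of Cdk6. Cdk4 shares 641 exonic bases with Tspan31 on the opposite strand, and whether reads were counted by strand is not stated; Tspan31 was 0.33 lower in GFP1 than in GFP4.

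Cdk2 (chromosome 10, 128697939 to 128705031, minus strand) is the kinase partner of cyclin E. In GFP4 it stood at 11.19, 11.37 and 11.49, in GFP3 at 11.58, 11.31 and 11.66, in GFP2 at 11.68, 11.61 and 11.79, in GFP1 at 11.90, 11.93 and 11.94 and in Total at 11.79, 11.77 and 11.82. The 3 GFP1 libraries lay above every other library. Cdk2 was 0.57 higher in GFP1 than in GFP4 (SE 0.10, adjusted p = 0.000365). Between GFP2 and GFP4 the difference was 0.34 and missed the threshold (adjusted p = 0.0704), although the libraries did not overlap. The share of all genes without overlap in that comparison is not given here. The difference passed with a filter at 1 ppm (adjusted p = 0.0334). Its exons share 34 bases with Pmel on the other strand.

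Ccne1 (chromosome 7, 38097984 to 38107534, minus strand) encodes cyclin E1, which activates CDK2 at the G1 to S transition. Its levels were 7.68, 7.84 and 8.09 in GFP4, 8.36, 7.90 and 8.18 in GFP3, 8.50, 7.83 and 8.30 in GFP2, 9.38, 9.27 and 9.41 in GFP1, and 8.84, 8.48 and 9.04 in Total. The GFP4, GFP3 and GFP2 libraries overlapped, and the GFP1 libraries stood above them all. Ccne1 was 1.48 higher in GFP1 than in GFP4 (SE 0.21, adjusted p = 2.4e-05), which is 2.79-fold, and 1.14 higher in GFP1 than in GFP2 (adjusted p = 0.0017). GFP2 against GFP4 gave 0.34 and was not called (SE 0.21, adjusted p = 0.519). The difference between the last step and the first, 0.86, did not pass (adjusted p = 0.264). The step from GFP2 to GFP1 is also the step in which immunoglobulin and plasma cell genes rose.

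The 3 D-type cyclins, which bring CDK4 and CDK6 to their substrates, did not move together. Ccnd2 (chromosome 6, 127125162 to 127152193, minus strand) stood at 14.01, 13.95 and 13.98 in GFP4, 13.88, 14.06 and 14.00 in GFP3, 13.65, 13.97 and 13.85 in GFP2, 13.17, 13.46 and 13.21 in GFP1 and 13.74, 13.74 and 13.71 in Total. All 3 GFP1 libraries were below every other library, and GFP4, GFP3 and GFP2 overlapped. Ccnd2 was lower in GFP1 than in GFP4 by a log2 difference of −0.70 (SE 0.089, adjusted p = 8.04e-06) and lower in GFP1 than in GFP2 by −0.54 (adjusted p = 0.000707). GFP2 against GFP4 gave −0.16 and was not called (SE 0.089, adjusted p = 0.47). The step from GFP2 to GFP1 is the one in which immunoglobulin rose. Whether the last step was larger than the first was tested directly by limma: the difference was −0.54 and missed the threshold (adjusted p = 0.0553). It passed when GFP2 replicate I was left out (adjusted p = 0.0245) and when GFP1 replicate II was (adjusted p = 0.0187), with array weights, with a stricter filter and with the compared groups alone. It did not pass in 14 of 20 alternatives. Among these were normalization without immunoglobulin genes (adjusted p = 0.109) and median-of-ratios rescaling (adjusted p = 0.124).

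Ccnd1 (chromosome 7, 144929931 to 144939925, minus strand) had overlapping groups. In GFP4 it was 9.84, 9.34 and 9.34, and in GFP1 it was 8.69, 9.79 and 9.38. The GFP1 minus GFP4 difference was −0.22 (SE 0.24, 95% interval −0.72 to 0.28, adjusted p = 0.653) and turned to 0.079 without GFP1 replicate I. Same-age differences were −1.15, 0.45 and 0.038, with both signs. GFP2 against GFP4 gave −0.18 (adjusted p = 0.853). Its levels in the other groups lay between 9.04 and 9.71. Ccnd1, Ccnd2 and Cdk6 share 1100, 372 and 368 exonic bases with opposite-strand genes that were not analysed here.

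Ccnd3 (chromosome 17, 47505051 to 47599691, plus strand) was close to level over the bins. Its values in GFP4 were 13.72, 13.76 and 13.71, in GFP3 they were 13.55, 13.76 and 13.53, in GFP2 they were 13.65, 13.73 and 13.53, and in GFP1 they were 13.95, 13.72 and 13.88. The groups overlapped, and the difference between GFP1 and GFP4 was 0.12 (SE 0.091, 95% interval −0.071 to 0.31, adjusted p = 0.473). GFP2 against GFP4 gave −0.096 (adjusted p = 0.753). Its exons share 361 bases with Bysl, on the opposite strand, which was 0.88 higher in GFP1 than in GFP4, and a processed pseudogene, Ccnd3-ps, is listed separately (0.63, not called).

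Within each library the balance between the D-type cyclins was compared, which cancels a factor shared by all genes of a library. It does not cancel the quantile normalization of the deposited values, which acts by rank. Only its change from bin to bin is read, because the levels of different genes are not comparable here. Ccnd3 minus Ccnd2 was −0.25 for GFP4, −0.36 for GFP3, −0.19 for GFP2 and 0.57 for GFP1, with −0.031 in Total. Its slope over the 4 bins was 0.26 per step (exact permutation test over 12 libraries, two-sided, p = 0.00341, adjusted p = 0.00683 over 4 such differences). The change was not even: most of it lay between GFP2 and GFP1, the step in which immunoglobulin rose. This slope contains the Ccnd2 fall tested above and is no separate evidence for it. Ccnd1 minus Ccnd2 had a slope of 0.15 that did not pass (exact permutation p = 0.0745, adjusted p = 0.0993), but passed without GFP4 replicate I (adjusted p = 0.0209) or GFP1 replicate I (adjusted p = 0.0471). Cdk4 minus Cdk2 had a slope of 0.0041 (exact permutation p = 0.907): these 2 kinases differed by 1.97 to 2.06 on average in every bin. The difference of Cdk6 and Cdk4, described with no test, went from −1.74 in GFP4 over −1.23 and −0.85 to 0.00056 in GFP1.

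**Figure D2:**
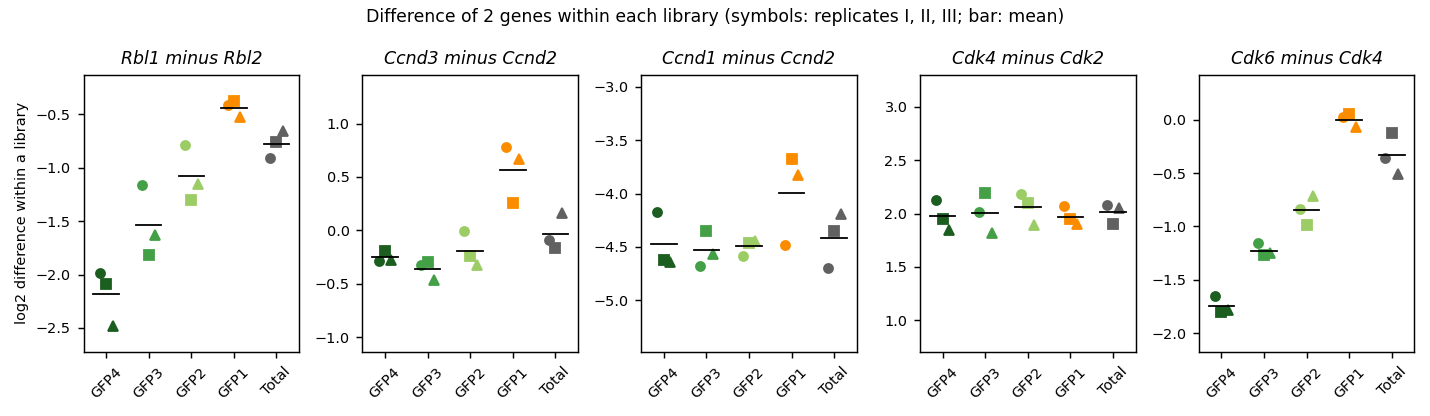
Difference of log2 levels between a pair of genes within each library (vertical axis, each panel spanning 2.6 log2 units) by group; symbols are the ages and bars the group means. Rbl1 minus Rbl2 climbs from −2.19 in GFP4 to −0.44 in GFP1, and Cdk4 minus Cdk2 stays near 2.

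The pocket proteins divided into a rising and a falling member. Rbl1 (p107, chromosome 2, 157145893 to 157204534, minus strand) stood at 11.16, 11.10 and 10.72 in GFP4, 11.61, 11.11 and 11.19 in GFP3, 11.82, 11.44 and 11.56 in GFP2, 11.93, 11.95 and 11.88 in GFP1 and 11.87, 11.83 and 11.40 in Total. The GFP1 libraries were above all GFP4, GFP3 and GFP2 libraries. It was 0.93 higher in GFP1 than in GFP4 (SE 0.15, adjusted p = 0.000159), 1.91-fold. Between GFP2 and GFP4 it was 0.61 higher (adjusted p = 0.0249). This missed the threshold without GFP4 replicate III (adjusted p = 0.147), GFP2 replicate I (adjusted p = 0.161) or GFP2 replicate III (adjusted p = 0.0613).

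Rbl2 (p130, chromosome 8, 91070057 to 91123844, plus strand) ran the other way, with 13.15, 13.18 and 13.20 in GFP4, then 12.77, 12.93 and 12.81 in GFP3, then 12.60, 12.74 and 12.71 in GFP2, then 12.35, 12.33 and 12.40 in GFP1. In the bins, no library of one group overlapped a library of the next, and the share of all genes separated in this way is not given here. The Total libraries were spread, at 12.78, 12.59 and 12.06. Rbl2 was lower in GFP1 than in GFP4 by a log2 difference of −0.82 (SE 0.12, adjusted p = 6.14e-05), with same-age differences of −0.80, −0.86 and −0.80. Between GFP2 and GFP4 the difference was −0.49 (adjusted p = 0.0265); the call was lost without any single one of those 6 libraries, at adjusted p of 0.0523 to 0.14 while the difference stayed between −0.52 and −0.45. Rbl2 shares 693 exonic bases with Aktip on the opposite strand, which itself was 0.51 lower in GFP1, and 892 with Gm45464, also on the opposite strand and not analysed here.

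The difference between Rbl1 and Rbl2 RNA within libraries was graded over the bins. Rbl1 minus Rbl2 averaged −2.19 for GFP4, −1.54 for GFP3, −1.08 for GFP2 and −0.44 for GFP1, and −0.78 for Total. Its slope was 0.57 per step (exact permutation test over 12 libraries, two-sided, p = 1.08e-05, adjusted p = 4.33e-05 over 4 differences). This slope combines the opposite changes of the 2 genes in the same libraries and is no separate evidence for them.

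Rb1 (chromosome 14, 73183673 to 73325822, minus strand), the founding pocket protein, varied widely between libraries of GFP2, GFP1 and Total. It stood at 11.06, 11.22 and 11.09 in GFP4, 11.15, 11.15 and 11.03 in GFP3, 9.62, 10.71 and 11.10 in GFP2, 10.03, 10.10 and 10.90 in GFP1 and 9.61, 10.04 and 10.61 in Total. GFP4 and GFP3 were tight (SD 0.085 and 0.071, n = 3 each), and in GFP2, GFP1 and Total the 6.5 month library was the highest and the 5 month library the lowest. The GFP1 minus GFP4 difference was −0.78 (SE 0.37, 95% interval −1.58 to 0.031, adjusted p = 0.2), although those libraries did not overlap, and it is not called. GFP2 against GFP4 gave −0.64 (SE 0.37, adjusted p = 0.507). The trend over the bins, −0.30 per step, was also not called (adjusted p = 0.109), and passed without GFP2 replicate I (adjusted p = 0.0405), GFP2 replicate III (adjusted p = 0.0445) or GFP1 replicate III (adjusted p = 0.0491). Rb1 shares 408 exonic bases with Lpar6, which was lower in GFP1 (−1.42), and 488 with Rcbtb2, both on the opposite strand.

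As a trend over the 4 bins, 4 members rose (Cdk4 by 0.19, Cdk2 by 0.19, Ccne1 by 0.45 and Rbl1 by 0.31 per step) and 2 fell (Ccnd2 at −0.23 and Rbl2 at −0.26 per step), where 20.1% of all genes were called (9.60% rising and 10.5% falling). Between neighbouring bins few passed. No member passed from GFP4 to GFP3, where 0.0572% of genes were called, or from GFP3 to GFP2, where 0% were. At an unadjusted limma p under 0.05 the counts were 2 and 1 of 9 members, against 1641 and 1569 of all 27994 genes. From GFP2 to GFP1, Ccne1 was higher and Ccnd2 lower, with 7.17% of genes called (3.06% higher and 4.10% lower). In GFP2 against GFP4, Cdk4 and Rbl1 were higher and Rbl2 lower, with 4.35% of genes called (2.69% higher and 1.67% lower). The difference between last and first step passed for no member by limma, with 0.686% of genes called. At an unadjusted limma p under 0.05 the counts there were 3 of 9 members and 2565 of all 27994 genes.

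Each bin was also set against Total, the undivided population. GFP4 was below Total in Cdk4 (−0.48, SE 0.077, adjusted p = 0.00034), Cdk2 (−0.44, SE 0.10, adjusted p = 0.00784), Ccne1 (−0.92, SE 0.21, adjusted p = 0.00633) and Rbl1 (−0.71, SE 0.15, adjusted p = 0.00468), and above it in Rbl2 (0.70, SE 0.12, adjusted p = 0.000885). Among all genes 4.70% were higher and 5.29% lower in this comparison, which shares its GFP4 libraries with the bin comparisons. The Cdk2 call was lost without GFP4 replicate I (−0.36, adjusted p = 0.06). Rb1 was 1.03 higher in GFP4 than in Total without passing (adjusted p = 0.116), and passed with the compared groups alone (adjusted p = 0.0156). GFP2 against Total called no member (0.329% of genes called), nor did GFP3 against Total (2.14%). At an unadjusted limma p under 0.05 the counts were 1 and 7 of 9 members, against 1882 and 3832 of all 27994 genes. GFP1 against Total called Ccnd2 alone (−0.45, adjusted p = 0.0111; 1.73% of genes called, 1.41% lower), and that call was lost without GFP1 replicate I (adjusted p = 0.0648), without GFP1 replicate III (adjusted p = 0.0742) or with the compared groups alone (adjusted p = 0.114).

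**Figure D3:**
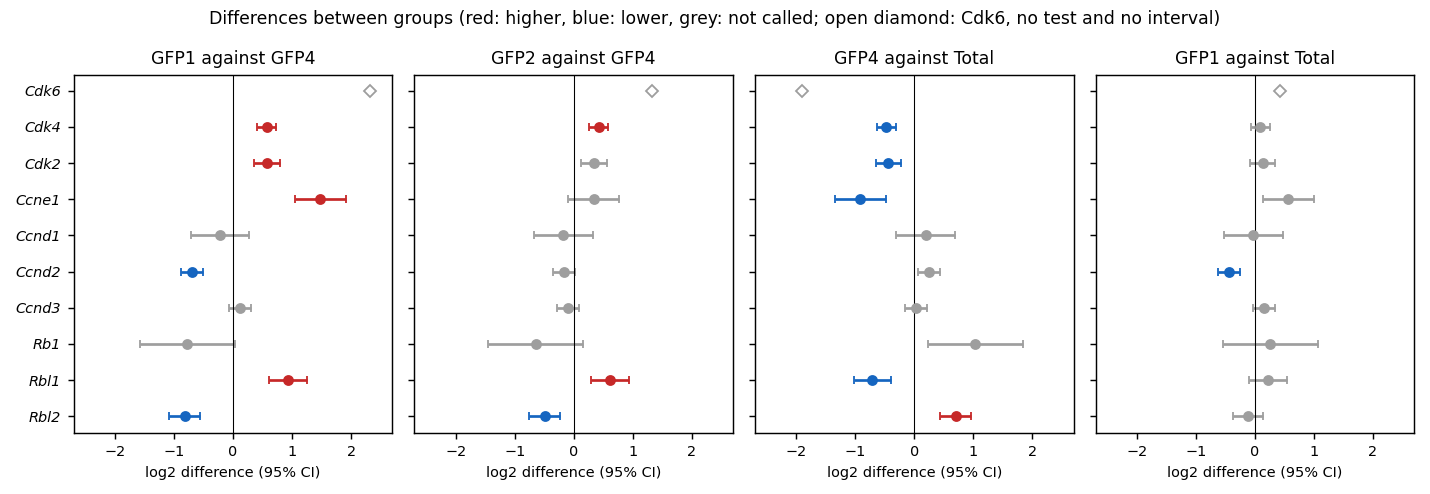
Log2 difference of each gene (first group minus second, horizontal axis) in 4 comparisons, with points for the estimate and bars for the 95% interval of the moderated fit; red is called higher, blue called lower and grey not called, and the open diamond is Cdk6 without a test or an interval. GFP1 against GFP4 has 4 red and 2 blue genes, and GFP4 against Total shows the reverse signs for the kinases.

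The genes around these kinases were read from lists chosen with earlier results of these data known. Over all genes, 19.5% were called in GFP1 against GFP4 (9.27% higher), and 41.3% of those averaging 10 ppm or more. In GFP2 against GFP4 it was 4.35% of all genes (2.69% higher). In GFP1 against GFP4, 18 of 18 E2F target genes were higher (median 1.36; all genes −0.069), such as Uhrf1, a maintenance methylation factor (1.86, SE 0.12), and Mcm2, a replicative helicase subunit (1.46, SE 0.11). Of 10 G2 and M phase genes 10 were higher (median 2.38), among them Aurkb, a mitotic kinase (2.55, SE 0.20), and Birc5 (survivin; 2.23, SE 0.19). In GFP2 against GFP4, where immunoglobulin is low in both groups, 16 of 18 and 10 of 10 were higher. Of the lists described next, GFP2 against GFP4 called 5 of 10 E2F and DP factors and 3 of 8 MuvB and DREAM genes higher. It also called 4 of 10 partners, 2 of 8 turnover genes and 1 of 7 CDK inhibitors higher. Among the inhibitors 1 was lower (Cdkn1c, −0.98).

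Of the 10 E2F and DP factors, 7 were higher and 1 lower (median 0.90): E2f8, an atypical repressor E2F, by 2.48 (SE 0.19), and Tfdp1, the DP partner of E2F, by 0.97 (SE 0.084), while E2f5, a partner of p130, was lower (−0.81, SE 0.15). Of 8 MuvB and DREAM genes, not all of them DREAM subunits, 4 were higher (median 0.34). They were led by Mybl2 (2.20, SE 0.20) and Foxm1 (2.07, SE 0.23), which are MuvB partners and not DREAM subunits. Of 10 tested partner cyclins, kinases and activators 4 were higher and none lower (median 0.18), with Ccne2, cyclin E2, at 1.79 (SE 0.18) and Cdk1 at 2.15 (SE 0.20). Of 8 cyclin turnover genes 2 were higher (median 0.19): Skp2, an F-box protein that targets CDK inhibitors, at 0.97 (SE 0.12), and its cofactor Cks1b at 1.93 (SE 0.18). The counts for partners and turnover genes were not above the 41.3% called among all genes averaging 10 ppm or more.

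Of 7 CDK inhibitors, 2 were higher and 1 lower (median 0.51), near the 41.3% called among all genes averaging 10 ppm or more. Cdkn2c, the p18 inhibitor of CDK4 and CDK6, was 2.34 higher (SE 0.21, adjusted p = 1.61e-07), and its relative Cdkn2d was 0.55 higher (SE 0.12, adjusted p = 0.00141). Cdkn1c, the p57 inhibitor known from quiescent HSCs, was lower (−1.98, SE 0.20, adjusted p = 2.31e-06). Its levels were 11.59, 11.36 and 11.63 in GFP4 and 9.28, 9.52 and 9.83 in GFP1. Cdkn2a (0.51, SE 0.81) and Cdkn2b (0.64, SE 0.89) were near the lowest value and not called, and the list's median is the difference of Cdkn2a itself.

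**Figure D4:**
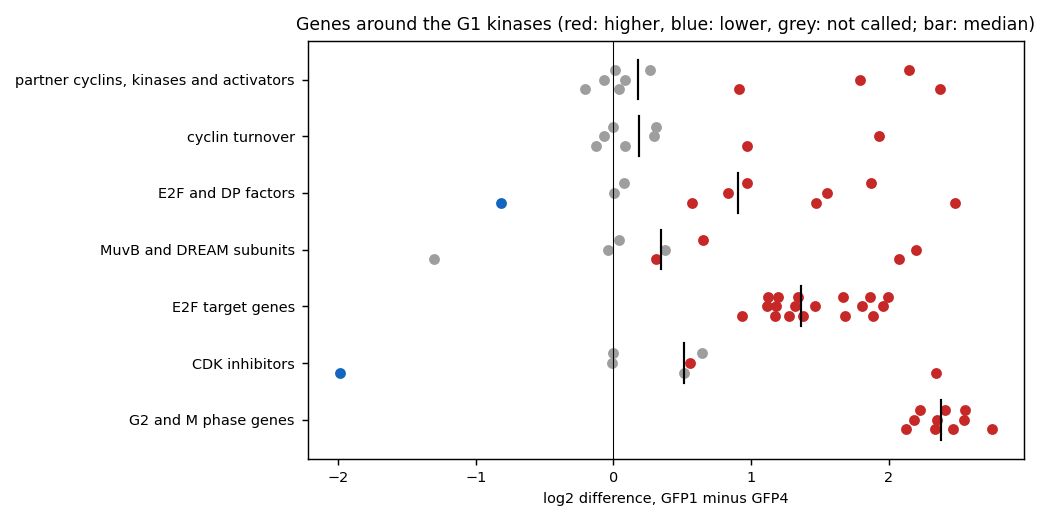
GFP1 minus GFP4 log2 difference (horizontal axis) of every tested gene of 7 lists (rows), 1 point per gene, with red called higher, blue called lower and grey not called, and a bar at the list's median. The E2F target and G2 and M phase genes all lie above 0, and the CDK inhibitors lie on both sides.

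For each member, the genes with the most similar profile over the 15 libraries were ranked by the root mean square distance of centred log2 levels among 9862 genes. Those closest to Cdk6 were Emid1 (0.163), Asf1b, Eme1, Runx3 and Spns3 (0.202). The nearest to Cdk4 were Idh2, Rnaseh2a and Chaf1b, and to Cdk2 they were Gspt1, Ywhah and Psmd8. Ccne1 was nearest to Hn1, Poc1a and E2f2, and Ccnd2 to Rnf13, Anxa5 and Clip1. Ccnd3 was nearest to Nkiras2, Trabd and Rexo1, and Ccnd1 to Bmyc, Gsr and Gm2a. Rbl1 was nearest to Cep128, Nudt5 and Fam111a, Rbl2 to Zdhhc17, Mfsd6 and Zscan26, and Rb1 to Pde7a, Rfwd2 and Tle4.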

How the data were processed

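RNA of sorted HSCs was made into cDNA with SMART-Seq v4 and into libraries with Nextera XT, per the labels' protocols. The submitters' processing notes name kallisto 0.43.0 and GRCm38; how transcripts became genes, the unit before normalization, the offset before the logarithm and the strand setting are not stated in what was read here. The table deposited by the authors holds log2 values, whose columns are quantile normalized by the values themselves, with read depth unknown. This scaling removes differences in total RNA and lets genes that enter the top ranks push others down.

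The deposited log2 values entered limma 3.58.1 (R 4.3.3) with 1 mean per group over 15 libraries, intensity trend and robust moderation (residual df 10). Tests covered the 27994 genes that reached a linear value (2 to the power of log2, minus an assumed offset of 1) of 1 in 3 or more libraries, all 10 members among them, with Benjamini-Hochberg adjustment within each comparison at 0.05. The script was tested on simulated data. Within-library differences used exact permutation. Coordinates come from GENCODE M21. The values of 1 marker gene are not reported here. Members and lists were chosen with earlier results of these data known. Named genes were all members and, per list, the 2 with the smallest p in each direction among those past the threshold, other genes being named where their values bear on these; the nearest profiles were the 5 closest to Cdk6 and the 3 closest to each other member. Alternatives covered normalization, filter, pseudocount, library weights, replicate block, samples in the fit and each library left out.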

Additional observations from a re-analysis of the deposited data

How the results depend on the processing

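Of 33 member tests counted here, 23 kept direction and call under every alternative. The printed GFP2 against GFP4 tests of Ccne1, Ccnd1, Ccnd2, Ccnd3 and Rb1 are not among the 33. Over all 516 alternatives of the 33, 13 lost a call, 15 gained one and 1 reversed. The reversal was Ccnd1 in GFP1 against GFP4, 0.079 without GFP1 replicate I, where leaving out 1 library gave −0.471 to 0.079. The Cdk4 minus Cdk2 slope, near 0, turned to −0.0022, −0.015, −0.0027, −0.0024 and −0.0040 without GFP4 replicate II, GFP4 replicate III, GFP3 replicate III, GFP2 replicate I and GFP1 replicate I (range over libraries left out −0.015 to 0.0215). Members higher and lower in GFP1 against GFP4 stayed at 4 and 2 under every alternative. GFP3 against Total called 1 member lower in place of 0 without immunoglobulin genes, with median-of-ratios rescaling, with a filter at 1 ppm and with the replicate block. That filter also called Cdk2 in GFP2 against GFP4 (adjusted p = 0.0334). The last minus the first step called 1 lower in place of 0 with that filter, array weights, the compared groups alone and the replicate block. GFP1 against GFP2 called 2 lower in place of 1 with array weights and with the compared groups alone; GFP4 against Total called 3 higher in place of 1 with the replicate block and 2 with the compared groups alone; GFP1 against Total called 0 lower in place of 1 with the compared groups alone. Leaving out 1 library gave 1 to 2 higher and 0 to 0 lower in GFP2 against GFP4, 0 to 1 higher and 0 to 1 lower in GFP3 against Total, 0 to 1 lower in the last minus the first step and 0 to 2 lower in GFP1 against Total.

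Calls over all genes moved by over 1.5 times in GFP1 against GFP2, 2007 (alternatives 1205 to 2778), GFP2 against GFP4, 1219 (alternatives 534 to 1621), GFP3 against GFP4, 16 (alternatives 0 to 121), GFP2 against GFP3, 0 (alternatives 0 to 19), the last minus the first step, 192 (alternatives 94 to 393), and against Total for GFP4, 2799 (alternatives 1660 to 3481), GFP3, 599 (alternatives 144 to 927), GFP2, 92 (alternatives 50 to 126), and GFP1, 484 (alternatives 89 to 714). The cause was not tested. Replicate numbers share an age but are not stated to share animals: same-numbered libraries of different groups correlated at −0.409 to 0.587 in their deviations (median 0.19, 21 of 30 over 0.1), and 13 of 15 libraries correlated best with their own number. With the replicate block the calls in GFP1 against GFP4 stayed at 4 higher and 2 lower, the Rb1 trend passed (adjusted p = 0.0354), Cdk2 passed in GFP2 against GFP4 (adjusted p = 0.0392), Ccnd2 passed in the last minus the first step (adjusted p = 0.0191), and Rb1 (adjusted p = 0.0375) and Ccnd2 (adjusted p = 0.0461) passed in GFP4 against Total. With 3 libraries a group and no read depth, the precision is limited.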

Other observations

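The other cyclin and cyclin-dependent kinase genes were surveyed after their values were seen. Of 44 such symbols tested, 37 are outside the set described above. In GFP1 against GFP4, 6 of these were higher and 6 lower, with 25 not called. Of all genes 19.5% were called, and 41.3% of those averaging 10 ppm or more, so the count is no excess over the second share. The 6 higher genes were Ccna2, Ccnb1 (2.47, SE 0.25), Ccnb2, Ccne2, Ccnf (2.21, SE 0.23) and Cdk1.

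The 6 lower genes were Cdk18 (−1.53, SE 0.11, limma adjusted p = 1.38e-08), Cdk14 (−0.97, SE 0.29, adjusted p = 0.0343), Cdk17 (−0.40), Ccng1, a p53 target (−0.41), Ccni (−0.28) and Ccnl1, a cyclin tied to RNA splicing (−0.33). The Cdk18 levels were 11.94, 12.00 and 11.94 in GFP4, 11.57, 11.73 and 11.37 in GFP3, 11.13, 11.36 and 11.16 in GFP2, and 10.58, 10.45 and 10.25 in GFP1. No library of one bin overlapped a library of the next, the reverse of the Cdk6 order, though GFP3 and GFP2 nearly touched (11.370 and 11.363). The share of all genes separated in this way is not given here. The Total libraries, at 11.26, 11.15 and 11.28, lay within or close to the GFP2 range. Cdk7, Ccnh and Mnat1, the CDK-activating kinase, had differences of −0.21, 0.012 and 0.083 and were not called.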
